A study of Homo sapiens with 10 samples.

Results

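The 10 genes described here encode the endothelial cell surface molecules that leukocytes hold on to and pass along when they leave the blood: the selectins SELE and SELP, the integrin ligands ICAM1, ICAM2 and VCAM1, and the junction molecules PECAM1, F11R, JAM2, JAM3 and CD99. They were chosen by symbol, through the Ensembl identifier that each symbol has in GENCODE 44, and all 10 had a row among the 60448 genes of the count table. RNA-seq was performed on untreated, confluent EA.hy926 and HMEC-1 cells to find differences in gene expression between these endothelial cell lines, with 5 independent biological replicates of each. EA.hy926 (genotype WT) arose from the fusion of umbilical vein endothelium with the lung carcinoma line A549 and was grown in Advanced DMEM with 5% fetal bovine serum. HMEC-1 (genotype WT) is a dermal microvascular endothelial line immortalized with the SV40 large T antigen, and it was grown in MCDB 131 with 10% serum, epidermal growth factor at 10 ng/mL and hydrocortisone at 1 µg/mL. Each kind of endothelium is represented by a single line in its own medium, so effects of line and medium cannot be told apart.

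Leukocytes first roll on selectins, then adhere firmly through integrins that bind ICAM1, ICAM2 and VCAM1, and finally cross the endothelium between the cells, where PECAM1, the junctional adhesion molecules (JAM-A, encoded by F11R, JAM-B, encoded by JAM2, and JAM-C, encoded by JAM3) and CD99 meet them. In endothelium at rest, ICAM2 and the junction molecules are present constitutively, P-selectin (SELP) is held ready in Weibel-Palade bodies together with von Willebrand factor, and E-selectin (SELE) and VCAM1 are made after cytokines such as TNF-α or IL-1 activate NF-κB, which also raises ICAM1.

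The 5 EA.hy926 libraries held 34846046 to 39899324 counts and the 5 HMEC-1 libraries 33391640 to 43877224. Expression is given as CPM, each count relative to a library size scaled by TMM, and log2FC is the log2 fold change of EA.hy926 over HMEC-1 with its standard error (SE). A gene was called differentially expressed when its log2FC was above 1 or below -1 and the quasi-likelihood test of edgeR gave an adjusted p under 0.05, as for 35.5% of the 16310 genes tested. A count of 0 allows up to 3 counts, which make 0.0781 to 0.0904 CPM (EA.hy926) or 0.0651 to 0.0856 CPM (HMEC-1), counting error alone being covered. All 16 endothelial markers examined were tested in these libraries, with summed CPM of 4613 to 4902 (EA.hy926) or 1884 to 1951 (HMEC-1), of which 9 were higher and 1 was lower in EA.hy926 past both thresholds. Of these, KDR, TEK, TIE1, ENG, EGFL7, ERG, FLI1, ROBO4, MMRN2, CLEC14A, NOS3 and PLVAP had a mean over 50 CPM in at least one line. Of 12 leukocyte markers, 3 passed the filter on low counts (summed CPM of the list 12.5 to 15.5 in EA.hy926, 3.65 to 4.39 in HMEC-1), and PTPRC, the pan-leukocyte antigen CD45, had 2 to 6 counts in the EA.hy926 and 0 to 1 in the HMEC-1 libraries, with TYROBP at 0 in all of EA.hy926 and CD3E in all of HMEC-1. LYZ, the lysozyme gene, made up most of the EA.hy926 sum, with 338 to 401 counts against 0 to 1 (edgeR adjusted p = 1.2e-19), and CD14 was lower in EA.hy926, with 0 to 4 counts against 17 to 26 (edgeR adjusted p = 1.1e-07), both named after their values were seen. LYZ and CD14 passed the filter only through the line where each was higher, which fixed their direction. Of the 12 epithelial markers, 8 were tested, of which 2 (KRT8 and EPCAM) were higher and 3 (KRT19, CLDN7 and CLDN4) lower in EA.hy926. They summed to 1279 to 1392 CPM (EA.hy926) or 431 to 494 CPM (HMEC-1), mostly from the keratins KRT7, KRT8 and KRT18, while CDH1 (E-cadherin), ESRP1 and GRHL2 were at 0 in all EA.hy926 libraries, as was GRHL2 in HMEC-1. Of the 12 mural and fibroblast markers, 2 were higher and 7 lower in EA.hy926. Their summed CPM was 413 to 471 in EA.hy926, where RGS5 led, against 538 to 565 in HMEC-1, where COL1A1 and COL1A2 led, and DCN and LUM were at 0 throughout. The part of these other programs in the results below was not tested.

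RefSeq promoter sequences (GRCh38.p14) could be matched to 5 of the 10 genes, and those of SELE, SELP, VCAM1 and ICAM1 are shown because they belong to the selectins and to the ligands that cytokines induce. Each runs 5′ to 3′ on the strand of the gene from 250 bases before the RefSeq start, and stops 15 bases before that start in SELE, 40 in SELP and 1 in VCAM1 and ICAM1. Of the bases shown, 30 in SELE, 30 in SELP and 27 in ICAM1 are annotated as exon. Capitals mark matches to the NF-κB consensus or to the TATA motif (TATAAA) on either strand.
SELE, chr1:169734094-169734329, minus strand: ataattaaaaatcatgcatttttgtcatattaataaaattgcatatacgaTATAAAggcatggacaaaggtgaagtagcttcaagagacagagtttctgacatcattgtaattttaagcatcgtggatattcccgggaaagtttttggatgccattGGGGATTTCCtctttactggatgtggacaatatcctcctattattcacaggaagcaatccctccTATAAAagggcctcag
SELP, chr1:169630164-169630374, minus strand: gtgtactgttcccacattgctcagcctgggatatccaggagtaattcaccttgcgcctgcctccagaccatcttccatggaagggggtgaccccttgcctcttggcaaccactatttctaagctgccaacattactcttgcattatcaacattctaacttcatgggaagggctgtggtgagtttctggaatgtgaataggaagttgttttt
VCAM1, chr1:100719492-100719741, plus strand: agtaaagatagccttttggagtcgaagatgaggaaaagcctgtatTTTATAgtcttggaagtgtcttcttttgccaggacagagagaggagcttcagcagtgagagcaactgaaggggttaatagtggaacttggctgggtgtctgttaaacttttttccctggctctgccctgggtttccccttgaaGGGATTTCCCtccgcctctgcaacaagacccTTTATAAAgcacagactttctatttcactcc
ICAM1, chr19:10270870-10271119, plus strand: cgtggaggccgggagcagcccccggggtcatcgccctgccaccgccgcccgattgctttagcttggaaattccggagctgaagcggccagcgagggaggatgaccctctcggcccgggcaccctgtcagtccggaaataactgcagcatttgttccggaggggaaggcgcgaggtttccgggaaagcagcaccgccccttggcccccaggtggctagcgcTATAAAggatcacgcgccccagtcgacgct
In the 250 bases before the start, the NF-κB consensus was matched in SELE (94 to 85 bases before the start) and in VCAM1 (62 to 53 bases before the start, on both strands), and in 9.96% of the 35116 promoters in the table. TATAAA was matched 30 to 25 bases before the start in SELE and ICAM1, and 29 to 24 bases before it in VCAM1, where a match on the other strand overlaps it, and it occurred in 10.7% of all promoters. A further match lay 200 to 195 bases before the start in SELE and, on the other strand, 205 to 200 bases before it in VCAM1. The AP-1 motif (TGANTCA), present in 6.57% of promoters, was matched in none of the 5, and SELP and CD99 matched none of the 3 motifs. The share of G and C in the 250 bases was 37.2% in SELE, 46.0% in VCAM1, 48.4% in SELP, 66.0% in ICAM1 and 78.0% in CD99, against a median of 58.0% over all promoters. A match is only a match of letters, and no match says nothing of the factor.

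P-selectin RNA was abundant in EA.hy926 and at the limit of detection in HMEC-1, and E-selectin RNA was at that limit in both lines. SELP (ENSG00000174175, chromosome 1, 169588849 to 169630193, minus strand) had 3879, 2832, 3278, 3169 and 3215 counts in EA.hy926 replicates 1 to 5, which is 90.6 ± 9.01 CPM (SD, n = 5). In HMEC-1 it had 1 count in replicate 1 and 0 in each of the others. Taking 3 counts in an HMEC-1 library as the floor, EA.hy926 held at least 1058-fold more SELP RNA (edgeR adjusted p = 2.5e-24), and no library of one line came near the other. In bulk RNA, fewer cells that express a gene and less RNA per cell cannot be told apart. SELE (ENSG00000007908, chromosome 1, 169722640 to 169764705, minus strand), whose promoter above holds both the NF-κB and the TATA match, had 1 count in each of EA.hy926 replicates 3 and 5 and 0 in all the other libraries of both lines. It was not tested, and no fold is given because both lines are under 3 counts.

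**Figure D1:**
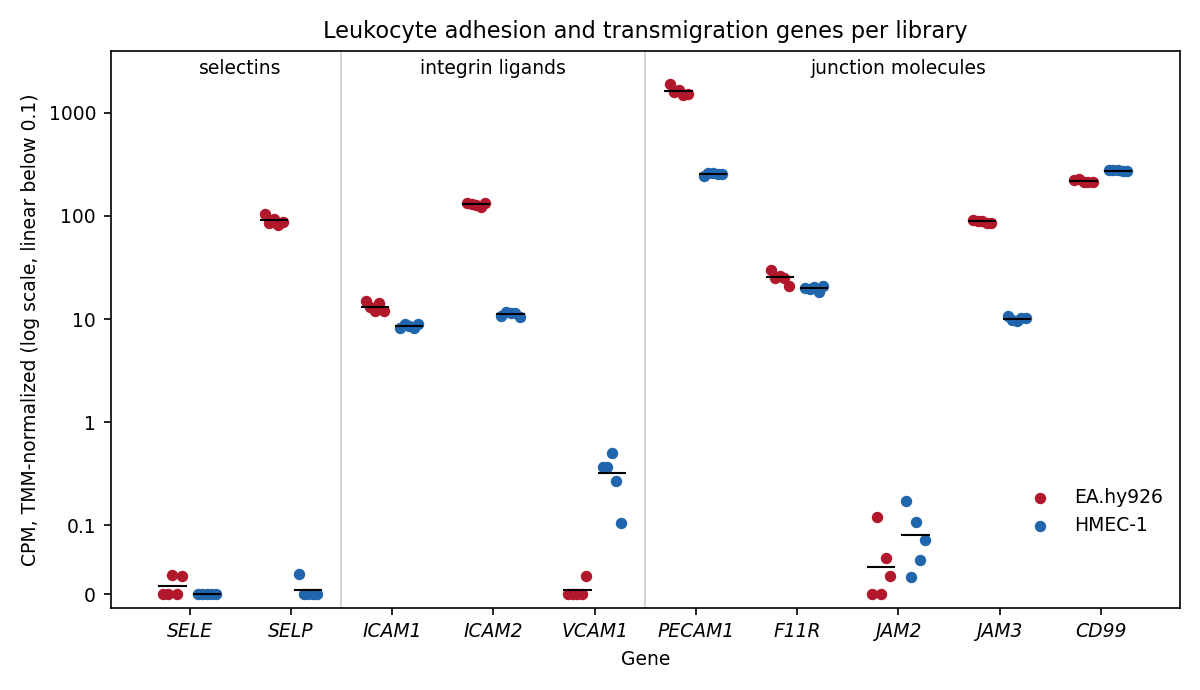
CPM of the 10 genes in each library (points, 5 per line) with the mean of the line (bar), on an axis that is logarithmic above 0.1 CPM and linear below. SELP, ICAM2, PECAM1 and JAM3 lie well apart between the lines, ICAM1, F11R and CD99 differ by less than the fold change threshold, and SELE, VCAM1 and JAM2 stay under 1 CPM in every library.

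Of the integrin ligands that passed the filter, the constitutive ligand ICAM2 differed more than ICAM1, which was low in both lines and somewhat higher in EA.hy926. VCAM1 did not pass it and was nearly absent. ICAM2 (ENSG00000108622, chromosome 17, 64002594 to 64020634, minus strand), which binds the leukocyte integrin LFA-1, had 4896, 4323, 4531, 4653 and 4945 counts in EA.hy926 and 376, 474, 530, 464 and 397 in HMEC-1. The lowest EA.hy926 library was far above the highest HMEC-1 library, and the difference was 11.6-fold (log2FC = 3.54, SE 0.039, adjusted p = 1.8e-25 from edgeR). Exons of PRR29 cover 26.8% of its exonic bases, and PRR29 counts went the same way, with 967 to 1153 in EA.hy926 against 137 to 168 in HMEC-1. ICAM1 (ENSG00000090339, chromosome 19, 10271093 to 10286615, plus strand), the cytokine-responsive ligand of LFA-1 and Mac-1, had 552, 436, 420, 546 and 444 counts in EA.hy926 and 287, 367, 391, 335 and 342 in HMEC-1. It was higher in EA.hy926 by 1.55-fold, under the fold change threshold (log2FC = 0.63, SE 0.067, edgeR adjusted p = 1.8e-08), and the ranges of the lines lay close but apart, at 12.0 to 14.9 CPM and 8.18 to 9.0 CPM. ICAM4-AS1 and LIMASI, which cover 25.4% of its exonic bases, had at most 3 counts in any library. VCAM1 (ENSG00000162692, chromosome 1, 100719742 to 100739045, plus strand), the ligand of the integrin VLA-4, had 0 counts in EA.hy926 replicates 1 to 4 and 1 in replicate 5, against 13, 15, 23, 11 and 4 in HMEC-1. All HMEC-1 libraries were above all EA.hy926 libraries, though at a level of 0.322 ± 0.146 CPM (SD, n = 5). With no filter on low counts it was lower in EA.hy926 (edgeR adjusted p = 7.0e-12), by at least 3.57-fold against 3 counts.

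The junction molecules differed from gene to gene. PECAM1 and JAM3 were much higher in EA.hy926, F11R and CD99 differed by 1.27-fold each in opposite directions, and JAM2 was hardly detected. PECAM1 (ENSG00000261371, chromosome 17, 64319415 to 64413776, minus strand), a homophilic adhesion molecule of the cell border, had 69625, 52794, 58903, 57500 and 56301 counts in EA.hy926 and 8543, 10670, 11997, 10294 and 9665 in HMEC-1. This is 6.43-fold higher in EA.hy926 (log2FC = 2.68, SE 0.048, edgeR adjusted p = 6.7e-22), and the counts of the lines lay far apart. JAM3 (ENSG00000166086, chromosome 11, 134069071 to 134152001, plus strand) encodes JAM-C, which binds JAM-B and the leukocyte integrin Mac-1, and had 3406, 2985, 3115, 3257 and 3201 counts in EA.hy926 against 376, 402, 443, 415 and 392 in HMEC-1. The difference was 8.74-fold (log2FC = 3.13, SE 0.038, edgeR adjusted p = 1.0e-24), and its direction held for every pair of libraries. The gene NCAPD3 covers 35.6% of the exonic bases of JAM3, and its own counts went the other way, with 2129 to 2714 in EA.hy926 against 5938 to 8219 in HMEC-1.

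F11R (ENSG00000158769, chromosome 1, 160995211 to 161021343, minus strand), the gene of JAM-A, which binds LFA-1, had 1111, 830, 910, 963 and 776 counts in EA.hy926 and 708, 791, 949, 752 and 807 in HMEC-1. The ranges overlapped, at 20.9 to 30.1 CPM and 18.4 to 21.1 CPM, and the log2FC of 0.35 (SE 0.068, edgeR adjusted p = 7.5e-05) became 0.21 when libraries were scaled by their totals alone. A read-through gene covers 36.6% of the exonic bases of F11R but had 1 to 5 counts in the EA.hy926 and 1 to 4 in the HMEC-1 libraries. CD99 (ENSG00000002586, chromosome X, 2691187 to 2741309, plus strand), a homophilic molecule that acts at a late step of transmigration and lies in the pseudoautosomal region, was the only tested gene of the 10 with a negative log2FC. It had 222, 229, 212, 213 and 212 CPM in EA.hy926 and 276, 277, 276, 275 and 271 CPM in HMEC-1 (log2FC = -0.34, SE 0.026, edgeR adjusted p = 6.3e-11), so the lines did not overlap but differed by 1.27-fold. Its pseudogene CD99P1, which can share reads with it, had 130 to 163 counts in EA.hy926 against 114 to 199 in HMEC-1. JAM2 (ENSG00000154721, chromosome 21, 25639258 to 25717562, plus strand), the gene of JAM-B, had 0, 4, 0, 2 and 1 counts in EA.hy926 and 6, 1, 5, 2 and 3 in HMEC-1. The lines overlapped and JAM2 was not tested. With no filter its adjusted p from edgeR was 0.228.

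Of the 10 genes, 7 passed the filter on low counts, and 4 of these (SELP, ICAM2, PECAM1 and JAM3) were differentially expressed, all higher in EA.hy926, where 19.1% of all genes tested were higher and 16.4% were lower past both thresholds. Of the 7, edgeR, DESeq2 and limma-voom each called 0 lower past both thresholds, and in edgeR 1 (CD99) was lower at a p under 0.05, adjusted or not. VCAM1 was called lower in edgeR only where it passed the filter, with no filter or in 6 of the 10 fits that each left out a library. The CPM ranges of the lines did not overlap for 6 of the 7, against 77.4% of the genes tested, which is near the background. The median log2FC of the 7 was 2.68, beside -0.01 over all genes tested. SELP passed the filter only through its EA.hy926 counts, which fixed its direction, and VCAM1, higher in HMEC-1, did not pass it. The median is therefore no measure of the 10 genes as a group. SELE, VCAM1 and JAM2, the other 3 genes, enter neither the median nor the counts.

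Levels of different genes were compared as CPM per kilobase of exon. In EA.hy926 the order was PECAM1 (211 ± 20.4, SD, n = 5), CD99 (44.8 ± 1.58), ICAM2 (39.8 ± 1.5), SELP (25.9 ± 2.58), JAM3 (16.7 ± 0.556), F11R (5.02 ± 0.645) and ICAM1 (3.84 ± 0.387), followed by JAM2, SELE and VCAM1 below 0.01 on average. Only F11R and ICAM1, and the last 3 genes among each other, had overlapping ranges between neighbors. In HMEC-1 the order was CD99 (56.7 ± 0.475), PECAM1 (32.8 ± 0.925), F11R (3.94 ± 0.207), ICAM2 (3.43 ± 0.165), ICAM1 (2.48 ± 0.113) and JAM3 (1.91 ± 0.0800), and after these VCAM1, JAM2, SELP and SELE, whose ranges overlapped from one to the next. With the longest transcript in place of the exon union, ICAM2 (8.34) was above F11R (4.18) in HMEC-1, which was the only exchange in order among the 45 pairs in either line. PECAM1 made up 60.7% ± 1.40 (SD, n = 5) of the summed level of the 10 genes in EA.hy926 and 32.4% ± 0.583 in HMEC-1, while CD99 made up 12.9% ± 0.824 and 55.9% ± 0.573. These shares depend on the length used, and with the longest transcript, an alternative chosen after seeing the data, they were 42.1% ± 1.75 and 13.8% ± 0.320 for PECAM1 and 29.97% ± 1.39 and 79.5% ± 0.365 for CD99. Among 16109 tested genes with an exon length, PECAM1 was number 154 by level in EA.hy926 and number 1278 in HMEC-1, and SELP was number 1705 in EA.hy926.

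**Figure D2:**
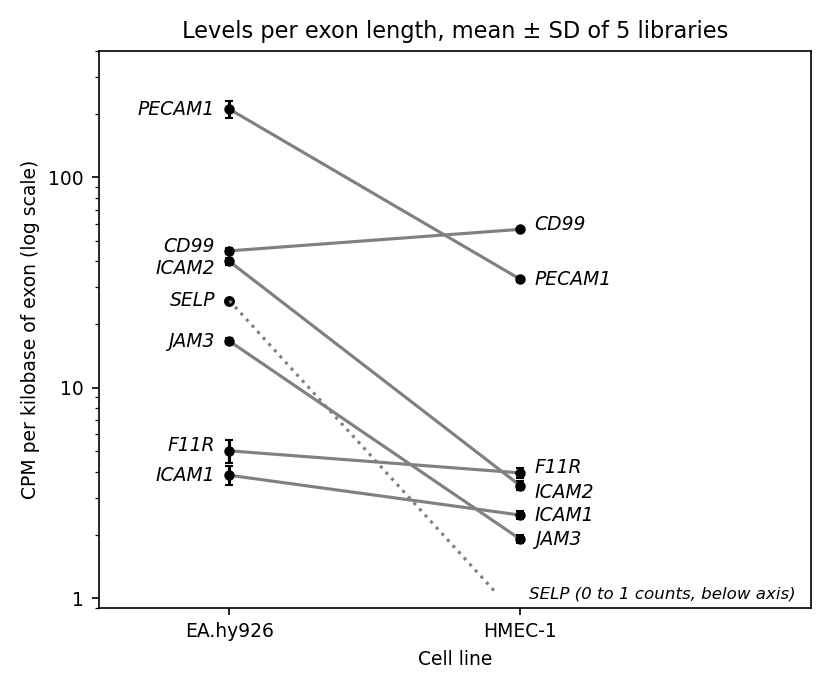
Mean level (CPM per kilobase of exon, log axis) of the 7 genes that passed the filter in EA.hy926 (left) and HMEC-1 (right), with the SD of 5 libraries. The lines of PECAM1 and CD99 cross, from 211 and 44.8 in EA.hy926 to 32.8 and 56.7 in HMEC-1, and SELP falls from 25.9 to below the axis.

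Since the scaling of libraries moves all genes together, pairs of genes were also compared within each library, where scaling plays no part. EA.hy926 libraries had 8.52 to 11.1 ICAM2 counts per ICAM1 count, and HMEC-1 libraries 1.16 to 1.38. The JAM3 to F11R ratio was 3.06 to 4.12 in EA.hy926 but 0.467 to 0.552 in HMEC-1, so that JAM-A counts outnumbered JAM-C counts in every HMEC-1 library and the reverse held in every EA.hy926 library. For PECAM1 to CD99 the ratio was 6.96 to 8.47 in EA.hy926 but 0.881 to 0.944 in HMEC-1. On the log2 scale the differences were 2.91, 2.78 and 3.02, and each had p = 0.00794 in a two-sided exact permutation test (adjusted p = 0.00794 over the 3 ratios), no smaller p being possible with 5 libraries against 5. Each pair set a differentially expressed gene against one that was not called. The differences follow from the log2FC of these genes given above, so the test adds no separate evidence.

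Within EA.hy926 several of these genes varied more between replicates than most genes of like level. The SD of log2 CPM was 0.135 for PECAM1, 0.139 for SELP, 0.186 for F11R and 0.144 for ICAM1, against medians of 0.0356, 0.0480, 0.0696 and 0.0887 over tested genes of like level, and these values were at percentiles 95.1, 98.3, 99.0 and 89.4 of those genes. ICAM2, CD99 and JAM3 were at percentiles 65.2, 63.1 and 49.8 in EA.hy926, and only 61 genes were of like level to PECAM1 there. In HMEC-1 the SD was 0.0409 for PECAM1 and 0.0763 for F11R, at percentiles 72.3 and 65.1. SELP, near 0 counts in that line, was at 61.3, and ICAM2, ICAM1, JAM3 and CD99 were lower, at 29.9, 18.2, 17.8 and 2.77. EA.hy926 replicate 1 had the highest CPM of its line for 5 of the 7 tested genes (PECAM1, SELP, F11R, ICAM1 and JAM3), for example 1885 CPM of PECAM1 against 1496 to 1677 in the other 4. How often this library was the highest over all genes tested was not examined, so the count is no trait of these genes. Without this library the log2FC was 2.63 for PECAM1, 13.37 for SELP (fitted, with HMEC-1 under 3 counts), 0.29 for F11R, 0.59 for ICAM1 and 3.12 for JAM3. Each remained higher in EA.hy926, the largest adjusted p from edgeR being 0.00011 (F11R).

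ICAM2 and PECAM1 lie 299 kb apart on chromosome 17, and some neighbors of both, named after their values were seen, were higher in EA.hy926 too. Over all genes tested, 35.5% passed both thresholds and 19.1% did so with higher expression in EA.hy926. An effect of the region was not tested. Among protein-coding genes, those past both thresholds were PRR29 (29.2 ± 1.33 against 3.84 ± 0.470 CPM in HMEC-1, SD, n = 5), whose exons share bases with ICAM2, ERN1 (32.9 ± 1.56 and 8.87 ± 0.637 CPM), MILR1 (14.2 ± 0.799 and 2.26 ± 0.143 CPM) and SMURF2 (494 ± 9.33 and 134 ± 1.60 CPM). TEX2, between ICAM2 and PECAM1, differed less (74.7 ± 3.12 and 59.8 ± 1.44 CPM, log2FC = 0.32), as did POLG2 and DDX5 (log2FC = 0.45 and 0.44), and CEP95 had 27.3 CPM in both lines. The gene CD79B, before ICAM2, had 0.423 ± 0.104 against 0.749 ± 0.137 CPM.

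**Figure D3:**
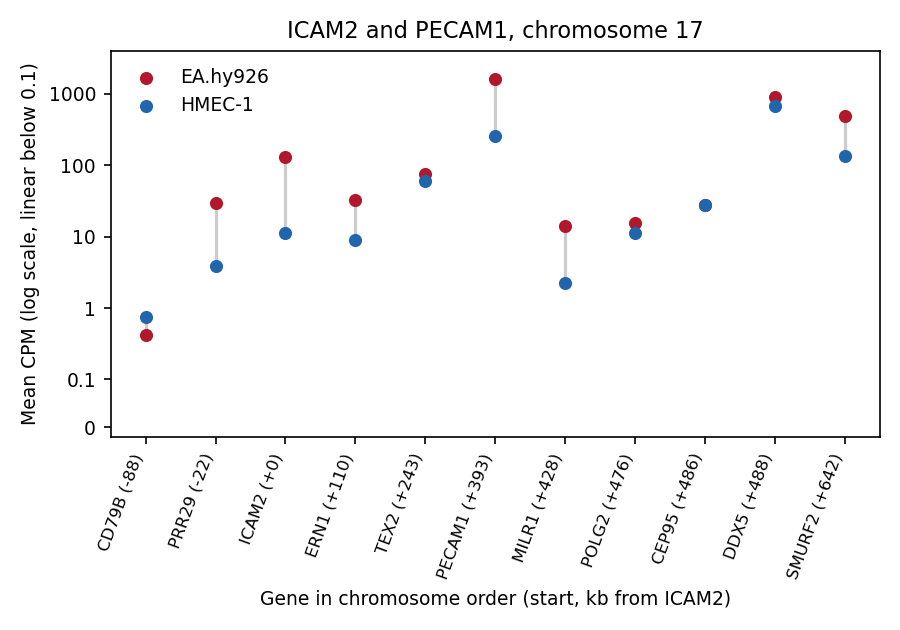
Mean CPM in EA.hy926 and HMEC-1 (axis logarithmic above 0.1 CPM and linear below) of tested protein-coding genes within 150 kb of ICAM2 or PECAM1, in chromosome order, with the distance of each gene's start in kb from that of ICAM2. PRR29, ICAM2, ERN1, PECAM1, MILR1 and SMURF2 are clearly higher in EA.hy926, and the points of CEP95 coincide.

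Other molecules of adhesion and transmigration were examined by lists, whose counts can be read beside the 35.5% of all genes that passed both thresholds and their median log2FC of -0.01. Some list genes, such as EMCN, TNC, CXADR, THY1, IL1R1, SPP1 and VTN, passed the filter only through the line where they were higher. Their direction was thus fixed before the test, and their p-values add no support. Among 15 further ligands and matrix proteins that leukocytes bind, 13 were tested, 4 were higher and 4 lower in EA.hy926 (median log2FC -0.02). The sialomucin endomucin (EMCN) had 0 to 2 counts in the EA.hy926 libraries but 18.4 ± 0.907 CPM (SD, n = 5) in HMEC-1, a difference of at least 203-fold (edgeR adjusted p = 1.0e-21). Tenascin-C (TNC) was also lower, with 0 to 5 counts against 16 to 43. Osteopontin (SPP1), with 33 to 74 counts against 0 to 2, and vitronectin (VTN), with 14 to 28 against 1 to 6, were higher but low. At higher levels, fibronectin (FN1, 539 ± 19.2 against 4953 ± 163 CPM) and MCAM (95.2 ± 4.54 against 538 ± 6.39 CPM) were lower. CD44 was higher (568 ± 20.5 against 175 ± 2.55 CPM). Of 15 molecules of the junction that transmigrating cells pass, 13 were tested, 4 were higher and 3 lower (median log2FC 0.15). ESAM, an adhesion molecule of endothelial tight junctions related to the JAMs, had 235 ± 8.95 against 6.04 ± 0.309 CPM (log2FC = 5.28, SE 0.040, edgeR adjusted p = 8.6e-28), and CD47 had 182 ± 3.07 and 57.4 ± 2.03 CPM. The JAM relative CXADR (0 to 4 counts against 43 to 67) and THY1 (0 to 1 against 16 to 31) were lower.

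Of 22 genes for the docking structure under an adherent leukocyte, all were tested, 5 were higher and 1 lower (median log2FC 0.21). ARHGEF26, the exchange factor SGEF that acts on RhoG below ICAM1, was higher, at 5.31 ± 0.444 against 0.730 ± 0.269 CPM (SD, n = 5). The actin binder LSP1 was also higher, at 4.19 ± 0.447 against 1.51 ± 0.311 CPM, and the kinase PTK2B was lower, at 5.25 ± 0.471 against 13.6 ± 0.867 CPM. The 22 genes of the pathway that induces SELE, VCAM1 and ICAM1 (cytokine receptors and NF-κB, with inhibitors included) were all tested. Of these, 3 were higher and 3 lower (median log2FC -0.15). IL1R1, the signaling receptor of IL-1, was at 0 throughout EA.hy926, with 270 to 423 counts in the HMEC-1 libraries, a difference of at least 91.1-fold (edgeR adjusted p = 1.8e-16). TNFRSF1B, the second TNF receptor, was lower as well, at 6.25 ± 0.767 against 76.9 ± 1.46 CPM (log2FC = -3.62, SE 0.052, edgeR adjusted p = 1.4e-23), while the first, TNFRSF1A, had 221 ± 4.66 and 196 ± 4.58 CPM. The inhibitor NFKBIA (138 ± 5.88 against 44.9 ± 0.975 CPM) and BIRC3 (2.29 ± 0.216 against 0.895 ± 0.138 CPM) were higher. The activity of NF-κB was not tested.

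Of 15 genes for Weibel-Palade bodies, the store of P-selectin, 4 were higher and 1 lower, and all were tested (median log2FC 0.01). SYT5 (29 to 58 counts against 3 to 14) and the RAB27A effector MYRIP (37.4 ± 3.02 against 11.8 ± 0.532 CPM, SD, n = 5) were higher and RAB3B (87.0 ± 4.82 against 199 ± 11.3 CPM) was lower. VWF itself was higher, at 57.9 ± 9.30 against 22.6 ± 0.435 CPM (log2FC = 1.36, SE 0.076, edgeR adjusted p = 3.2e-13), so HMEC-1 libraries held VWF RNA with 0 to 1 counts of SELP. Among 14 genes of ectodomain shedding, by which adhesion molecules are cut from the surface, 13 were tested, 3 were higher and 1 lower (median log2FC -0.05). The metalloproteinase inhibitor TIMP3 (1122 ± 43.2 against 15.8 ± 0.398 CPM) and MMP2 (2359 ± 144 against 251 ± 6.24 CPM) were higher, ADAM9 was lower (380 ± 11.6 against 840 ± 11.2 CPM), and ADAM17, the main sheddase of several of these molecules, had 61.7 ± 1.68 and 63.9 ± 1.79 CPM (edgeR adjusted p = 0.107). Of 14 leukocyte counter-receptors (integrin chains, selectin partners, CD38, PILRA and PILRB), 11 were tested, 3 were higher and 2 lower (median log2FC 0.26). The integrin chains ITGAX (86 to 96 counts against 5 to 15) and ITGB2 (26 to 52 against 11 to 27), which pair with each other, were higher, and the α4 chain of VLA-4, ITGA4, was lower in EA.hy926 (60.1 ± 2.76 against 225 ± 4.09 CPM, log2FC = -1.90, SE 0.030, edgeR adjusted p = 8.5e-23). Exons of CERKL cover 26.4% of the exonic bases of ITGA4.

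**Figure D4:**
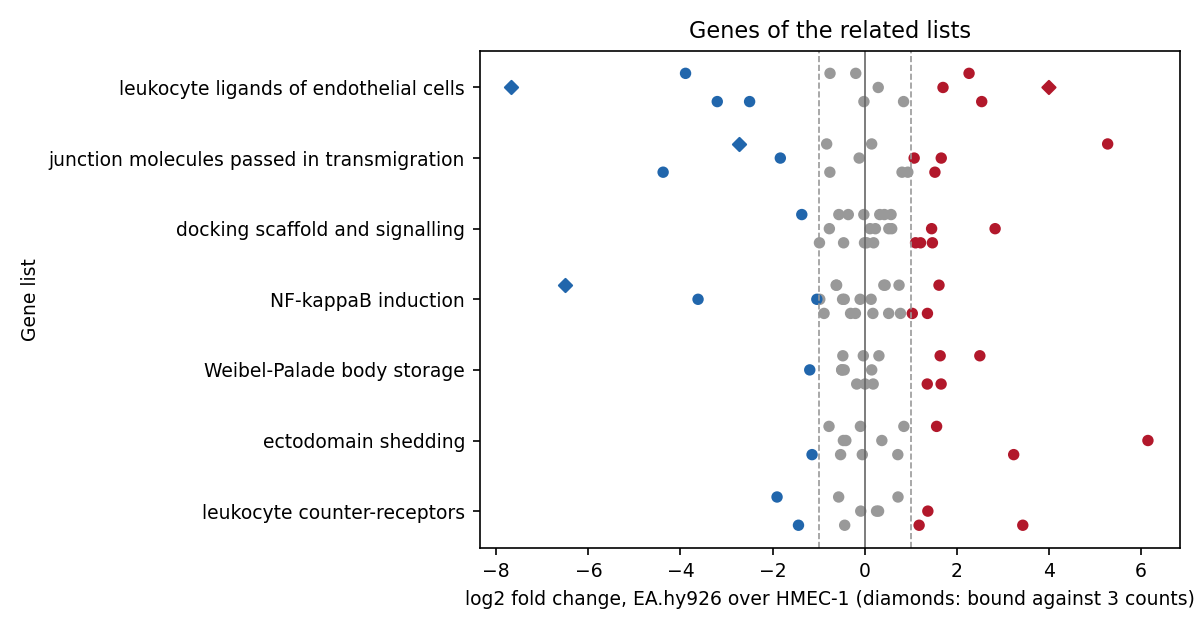
The log2FC (EA.hy926 over HMEC-1) of each tested gene in the 7 related lists, with red and blue for genes higher and lower in EA.hy926 past both thresholds, gray for the others and dashed lines at the fold change threshold of 1. Genes with at most 3 counts in every library of a line are drawn as diamonds at their bound. Each list holds genes on both sides, and the outermost points are TIMP3 and ESAM to the right and EMCN and IL1R1 to the left.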

How the data were processed

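The 10 libraries hold mRNA of untreated EA.hy926 or HMEC-1 cells, with 5 biological replicates each. The authors selected mRNA with oligo(dT), filtered the reads (fastp, per the labels), aligned them to GRCh38 with HISAT2 and deposited raw counts per gene. The paper names HTSeq as the counter and the processing notes featureCounts. Versions, annotation release and strand setting are not given in the sources used here, so counts of overlapping genes are uncertain. RNA was taken from trypsinized cells with a quality score over 6.8.

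Libraries were assigned to lines by title and columns by name. Symbols, positions and exon lengths came from GENCODE 44 by Ensembl identifier (56434 of 60448 genes matched), and bedtools 2.31.1 gave the exon overlap between genes regardless of strand. In R 4.3.3, edgeR 4.0.16 was used for the filter on low counts (filterByExpr, with 10 as the minimum and 15 as the minimum total), TMM scaling and the quasi-likelihood test (glmQLFTest after glmQLFit), with Benjamini-Hochberg adjustment over all genes tested. SE is the absolute log2FC over the square root of F. A line with at most 3 counts in every library gives a fold bound against the highest CPM of 3 counts in that line. Count ratios carry 0.5 added to each count, and log2 CPM a prior count of 2. Figures and exact permutation tests used matplotlib 3.10.9 and scipy 1.17.1. The alternatives were DESeq2 1.42.0, limma-voom (limma 3.58.1), other filters and scalings, glmTreat, a replicate block and each library left out. The tests were tried on simulated counts.

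All 10 genes were named, and of each related list up to 2 genes from each end of the log2FC order past both thresholds with at least 10 counts in every library of a line. Other genes (FN1, MCAM, CD44, ALCAM, PODXL, TNFRSF1A, VWF, ADAM17, PTPRC, the further markers and the neighbors of the members) were named after their values were seen. Markers were named when over 50 CPM in a line or at 0 throughout one. The members and lists were chosen with earlier results of these data known. A gene of the lists is not reported here and enters no list count.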

Additional observations from a re-analysis of the deposited data

How the results depend on the processing

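The 4 genes called higher in EA.hy926 (SELP, ICAM2, PECAM1 and JAM3) were called in every alternative that tested them. A minimum of 10 counts in every library left 3, because SELP then drops out. The number of members called lower was 0, and 1 (VCAM1) with no filter on low counts. With each library left out in turn it was 0 to 1, as VCAM1 then passed the filter in 6 of 10 fits (any EA.hy926 library or HMEC-1 replicate 5 left out, edgeR adjusted p = 1.1e-07 to 8.7e-06). Over all genes, 5784 were called, 9312 without a filter, 3255 with at least 10 counts in every library and 5945 to 6000 with each library left out. That stricter filter, which tests fewer genes, left 3 called genes each among the ligands (8 before), the Weibel-Palade body genes (5 before) and the leukocyte counter-receptors (5 before), and a glmTreat test against a log2FC of 1 left 2 of the counter-receptors. Library totals in place of TMM factors moved the log2FC of all genes by a median of -0.13, and no member changed direction.

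The libraries gave no clear sign of pairing by replicate number (correlations of same-numbered deviations -0.02 to 0.04, and 2 of 5 EA.hy926 libraries correlated best with their own number). With 5 pairs this check cannot exclude that same-numbered libraries were handled together. With the replicate number as a block in edgeR, 5786 genes and the 4 members were called. For the within-library ratios, sign flips over same-numbered libraries (differences of 2.91, 2.78 and 3.02) gave an exact adjusted p = 0.0625, the smallest that 5 pairs allow, so this test could not pass the threshold. JAM2, SELE and VCAM1 are limited by depth, with at most 23 counts in any library.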

Other observations

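In the ICAM cluster of chromosome 19, ICAM5, a family member best known from neurons, had 2.22 ± 0.356 CPM in EA.hy926, against 1.24 ± 0.255 in HMEC-1 (SD, n = 5, log2FC = 0.84, edgeR adjusted p = 5.4e-05), and ICAM3, typical of leukocytes, had at most 3 counts in any library. These genes were chosen after their values were seen.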
